A study of Homo sapiens with 6 samples.

Results

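The MYC, MAX and MXD network was described here through 10 genes, MYC, MYCN, MYCL, MAX, MXI1, MXD3, MXD4, MNT, MGA and MLX, taken by name from a table of 63140 genes. Their 10 Ensembl identifiers were all in the table, and 9 of the 10 genes had enough reads to be tested. The cells were HEK293T, an immortalised human embryonic kidney line that carries the SV40 large T antigen. They had been transfected with a miR-34a duplex (3 libraries) or, as control, with the AllStars negative control of Qiagen (3 libraries; called an siRNA in the labels and an miRNA in the series text), and RNA was taken 18 h later. All 6 libraries come from this 1 line. The series text calls the replicates biological without saying what was separate, so p-values measure the spread between these libraries. The study asked how features of the pairing between a microRNA and its target bear on repression.

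The proteins of this network share a basic helix-loop-helix leucine zipper and bind DNA as pairs, most often at the E-box. MYC, MYCN and MYCL pair with MAX and raise transcription of genes for growth, ribosome production and metabolism. MXD proteins (MXI1 is one of them), MNT and MGA pair with MAX too and repress at the same sites, and MLX is a MAX-like partner of MNT, of some MXD proteins and of the glucose-sensing factors MLXIP (MondoA) and MLXIPL (ChREBP). A microRNA directs an Argonaute protein to mRNAs that pair with it in part, mainly by the seed, and MYC and MYCN are both published miR-34a targets.

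The miR-34a strands are shown because every match below is a match to the first of them; capitals mark the seed, bases 2 to 8. Both come from RefSeq (GRCh38.p14, minus strand), at chr1:9151735-9151756 and chr1:9151693-9151714.
hsa-miR-34a-5p: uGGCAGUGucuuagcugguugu
hsa-miR-34a-3p: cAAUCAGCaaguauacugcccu
Seed matches were searched in 1 protein-coding transcript of each gene, that with the longest coding sequence in GENCODE release 29. The kinds of match were the 8mer CACTGCCA, the 7mer-m8 CACTGCC, the 7mer-A1 ACTGCCA and the 6mer ACTGCC, all on the transcript's own strand. The longer kinds contain the 6mer, and each place counts once, as its longest kind.

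In the 3′ untranslated regions (UTRs), MYCN, MXD4, MNT and MLX held at least 1 match of 7 or 8 bases. The sites are printed 5′ to 3′ in windows of 30 bases with the match in capitals, so that the strongest candidates can be set beside the levels that follow.
MYCN 8mer, chr2:15946120-15946127, plus strand: gcttctcaaaactggacagtCACTGCCAct
MYCN 7mer-m8, chr2:15946678-15946684, plus strand: tatgtactgtactaattcttaCACTGCCtg
MXD4 7mer-m8, chr4:2250396-2250402, minus strand: agctgctgctgggctgcctggCACTGCCcg
MXD4 7mer-m8, chr4:2249558-2249564, minus strand: aagcaaaaaagtaaaatgctgCACTGCCca
MXD4 7mer-m8, chr4:2247651-2247657, minus strand: gggaacctgggaccccctcccCACTGCCtg
MNT 8mer, chr17:2386214-2386221, minus strand: aacaataaaccaaacccagcCACTGCCAag
MLX 7mer-m8, chr17:42573212-42573218, plus strand: tttcagatgggcagcactgggCACTGCCtg
All coordinates are GRCh38 and cover the match alone, and all 7 lie in the last exon. The MYCN 8mer starts 22 bases after the stop codon and its 7mer 580 bases after it. The MXD4 matches start 141, 979 and 2886 bases after the stop codon, that of MNT 679 and that of MLX 1608 bases after it. The letters AGCT, which would pair with bases 13 to 16 of miR-34a-5p, stood in 1 of these 7 windows, that of the first MXD4 match, with 17 bases between them and the match.

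Coding sequences held further matches, shown because MGA had none of 7 or 8 bases in the 3′ UTR searched and MXD4 had the most.
MXD4 7mer-m8 in exon 6 of 6, chr4:2250573-2250579, minus strand: ggcgacagtggcttcgggcccCACTGCCgg
MGA 7mer-m8 in exon 9 of 24, chr15:41713274-41713280, plus strand: ttggagaagcgccaacctgctCACTGCCgc
MGA 8mer in exon 20 of 24, chr15:41760415-41760422, plus strand: gcttattatcgccggacacaCACTGCCAat
Among tested genes with a coding sequence of like length (at least 0.8 times the longer of the pair), 9.41% held a 7mer or 8mer for the length of MXD4 and 74.1% for that of MGA. MXI1 held a 6mer in its 3′ UTR, MNT a 6mer in its coding sequence and MGA another in its own. MYC held a single 6mer, 137 bases after the stop codon, and MYCL, MAX and MXD3 held no match of any kind. No 5′ UTR held one. A 7mer or 8mer was present in 9.90% of 3′ UTRs of like length to that of MYC (476 bases), 16.9% for MYCN (910 bases), 35.6% for MXD4 (3112 bases), 33.0% for MNT (2841 bases) and 24.9% for MLX (1636 bases). At least 3 such matches, the number in MXD4, were present in 1.6% of the 3′ UTRs of like length. For the genes without a 7mer or 8mer in the 3′ UTR searched, all other annotated protein-coding transcripts were searched too: 1 transcript of MGA held one, and no transcript of MYC, MYCL, MAX, MXI1 or MXD3 did.

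**Figure D1:**
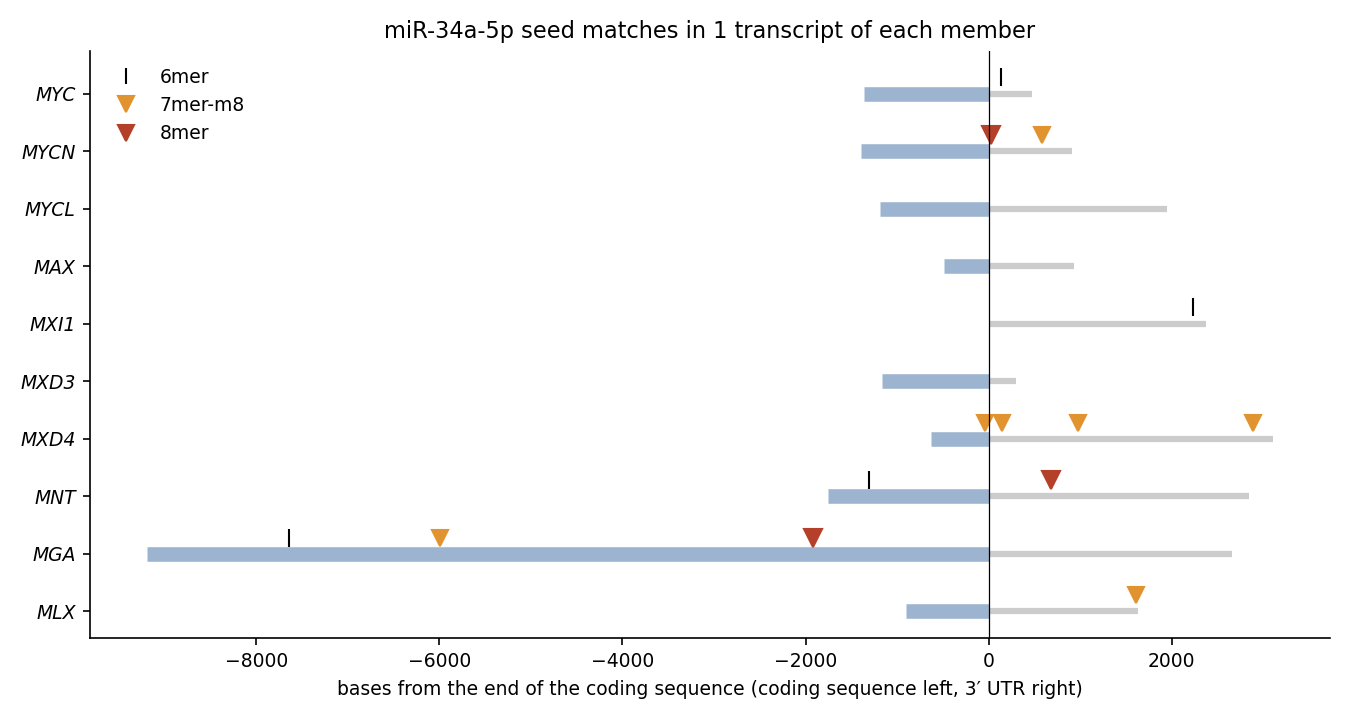
Seed matches of miR-34a-5p in 1 transcript of each of the 10 genes, by distance in bases from the end of the coding sequence; thick bars are coding sequence, thin bars 3′ UTR, triangles 8mers (red) and 7mer-m8 matches (orange), ticks 6mers; the coding sequence of MXI1 is not shown. MXD4 holds 3 matches in its 3′ UTR, MYCN a pair, and MYC 1 6mer.

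The libraries held 25198898 to 36650331 counts with miR-34a and 24728662 to 32849065 in the control. All 7 genes listed as typical of HEK293 cells had at least 1 CPM (counts scaled to library depth, per 1e6 counts) in each library. Of 11 genes of blood, liver, connective tissue, endothelium and muscle, 8 stayed under 1 CPM and 2 of these, CD3E and MYH6, had no read; the list summed to 26.3 to 28.2 CPM with miR-34a and 26.1 to 32.3 CPM in the control, most of it COL1A1. One library stood apart at SIRT1, at 428 CPM in miR-34a replicate 2 against 49.7 and 73.3 CPM in miR-34a replicates 1 and 3 and 71.1 to 92.4 CPM in the control. Results are therefore given without that library where it matters. Over all 17427 tested genes 12.1% were called, 6.70% as lower and 5.38% as higher with miR-34a (edgeR quasi-likelihood test, Benjamini-Hochberg adjusted p under 0.05). The CPM values of the groups did not overlap for 27.3% of tested genes.

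Of the 9 members tested, 1 fell with miR-34a, MYC, and none rose; the members' median log2 fold change was -0.04, against -0.004 over all tested genes. MYC is the most widely expressed activator of the family. It had 108.5, 104.1 and 105.8 CPM in miR-34a replicates 1, 2 and 3, against 132.8, 139.4 and 143.1 CPM in control replicates 1, 2 and 3. Each miR-34a library lay below each control library, and the gap was larger than the range within either group. The mean was 106.1 ± 2.25 CPM with miR-34a and 138.4 ± 5.22 CPM in the control (SD, n = 3 each). The log2 fold change was -0.38 ± 0.07 (SE; 95% interval -0.52 to -0.25), with a quasi-likelihood adjusted p of 0.00024 from edgeR, so the level fell by 23.3%. Without miR-34a replicate 2 it was -0.37, adjusted p = 0.0039. MYC passed in each of the 12 alternative fits, with log2 fold changes of -0.41 to -0.36. MYC (ENSG00000136997) lies on chromosome 8 from 127735434 to 127741434, plus strand, and no overlapping exon of another gene is annotated. In bulk RNA a lower level in every cell and the loss of some cells that express the gene cannot be told apart.

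At an unadjusted p under 0.05, 2 of the 9 members were lower (MYC and MXI1) and none was higher, and DESeq2 also called 1 lower and none higher. The share of all tested genes at that unadjusted threshold is not given here. This count and those of the lists below thus lack a background. In CPM, 4 of the 9 tested members had groups that did not overlap, MYC and MXI1 with miR-34a lower and MXD4 and MLX with miR-34a higher. The groups did not overlap for 27.3% of all tested genes.

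MYCN, the paralogue best known from neuroblastoma and embryonic nervous tissue, was at the edge of detection. Its counts were 0, 2 and 3 in miR-34a replicates 1, 2 and 3, against 2, 5 and 4 in control replicates 1, 2 and 3, so 5 reads in all with miR-34a and 11 in the control. The limit that a count of 0 allows, 3 counts, was 0.0811 to 0.119 CPM in the miR-34a libraries and 0.0915 to 0.123 CPM in the control. These limits cover counting error only. MYCN did not reach the minimum count and was not tested in the main fit. In a fit with no filter its log2 fold change was -1.12 with an SE of 1.2 and an edgeR adjusted p of 0.73, so a difference was not detectable at this depth. The 8mer and 7mer of its 3′ UTR, printed above, were thus on an mRNA that was hardly measured in these cells. MYCN (ENSG00000134323) lies on chromosome 2 from 15940564 to 15947007, plus strand. It shares 3.77% of its exonic length with the antisense gene MYCNOS, which had 0 counts in each library.

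MYCL, the third paralogue, was low. It had 6.08, 8.36 and 6.57 CPM in miR-34a replicates 1, 2 and 3, against 6.42, 7.53 and 8.11 CPM in control replicates 1, 2 and 3. The groups overlapped, and the log2 fold change was -0.08 ± 0.14 (SE; 95% interval -0.37 to 0.22), with an edgeR adjusted p of 0.81. MYCL (ENSG00000116990) lies on chromosome 1 from 39895426 to 39902256, minus strand.

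MAX, the partner that MYC, MXD, MNT and MGA proteins share, did not pass. It had 70.2, 60.0 and 58.2 CPM in miR-34a replicates 1, 2 and 3, against 68.0, 65.6 and 70.8 CPM in control replicates 1, 2 and 3. Replicate 1 with miR-34a lay among the control libraries and the other two lay below them. The log2 fold change was -0.12 ± 0.08 (SE; 95% interval -0.28 to 0.04), with an edgeR adjusted p of 0.37. MAX (ENSG00000125952) lies on chromosome 14 from 65006174 to 65102695, minus strand.

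**Figure D2:**
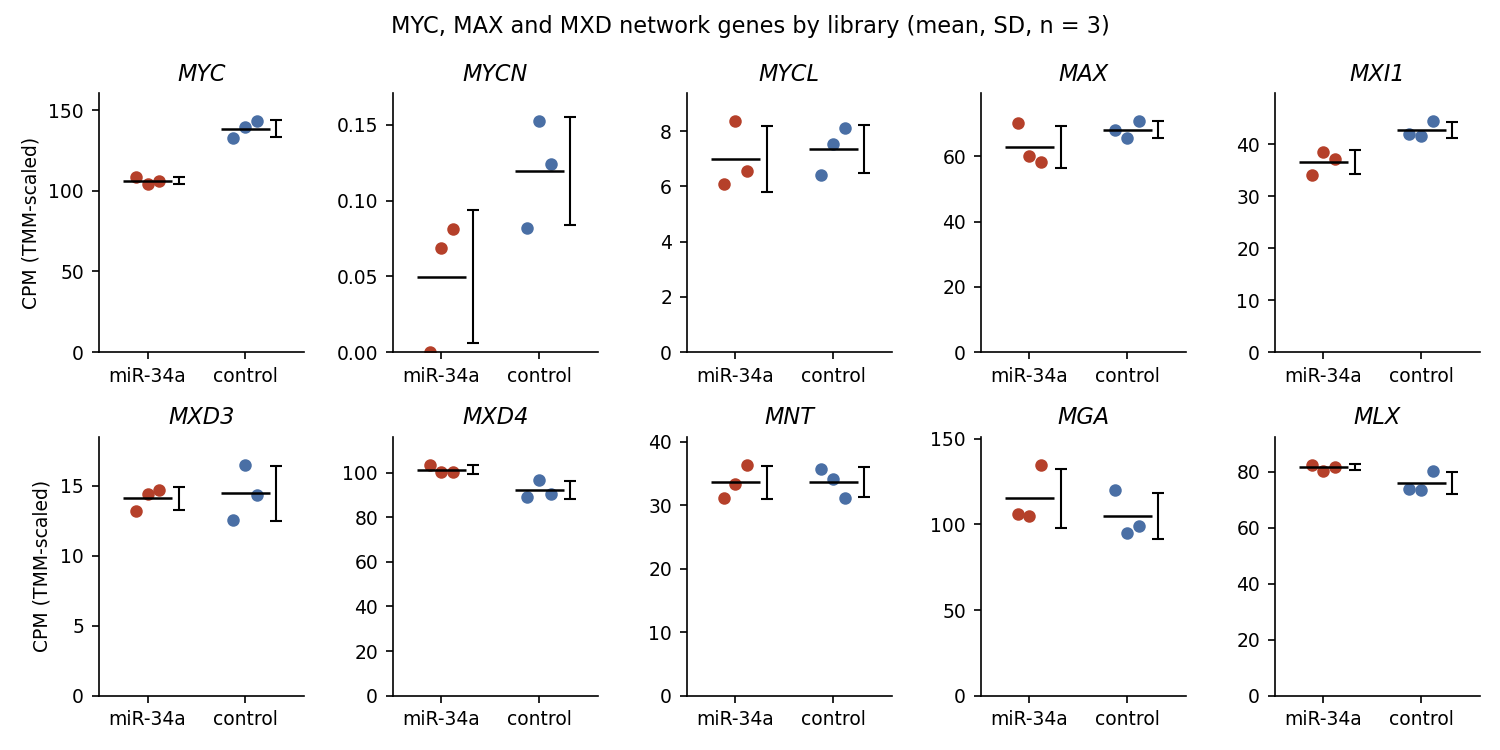
CPM of each member in the 3 miR-34a libraries (red, left) and the 3 control libraries (blue, right); lines are means and bars SD, each panel has its own axis from 0. MYC is lower in each miR-34a library (104.1 to 108.5 CPM) than in any control library (132.8 to 143.1 CPM), while MYCN is at or near 0 in all 6.

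Among the members that are repressor partners none passed: MXI1 lay lower with miR-34a, and MXD4, which held the most seed matches, lay higher. MXI1, once described as an antagonist of MYC in growth control, had 34.1, 38.5 and 37.1 CPM in miR-34a replicates 1, 2 and 3, against 41.9, 41.6 and 44.4 CPM in control replicates 1, 2 and 3. The groups did not overlap, but the log2 fold change of -0.22 ± 0.08 (SE; 95% interval -0.38 to -0.06) had an edgeR adjusted p of 0.062, and adjusted p-values of 0.053 to 0.24 over the 12 alternatives. MXI1 (ENSG00000119950) lies on chromosome 10 from 110207605 to 110287365, plus strand.

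MXD4 had 103.6, 100.5 and 100.2 CPM in miR-34a replicates 1, 2 and 3, against 89.1, 96.7 and 90.5 CPM in control replicates 1, 2 and 3. Each miR-34a library lay above each control library. The log2 fold change was 0.14 ± 0.07 (SE; 95% interval -0.00 to 0.28), with an edgeR adjusted p of 0.21, so no change was called, and the lower end of the interval was close to 0. For scale, 26.9% of the 156 tested genes with at least 3 such 3′ UTR matches fell and 4.49% rose, against 5.61% and 7.18% of the 10508 genes with none. MXD4 (ENSG00000123933) lies on chromosome 4 from 2247432 to 2262294, minus strand.

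MXD3, an MXD protein linked to S phase, had 13.2, 14.4 and 14.7 CPM in miR-34a replicates 1, 2 and 3, against 12.6, 16.5 and 14.3 CPM in control replicates 1, 2 and 3. The groups overlapped, with a log2 fold change of -0.04 ± 0.11 (SE; 95% interval -0.26 to 0.19) and an edgeR adjusted p of 0.88. This value is uncertain. Of the exonic length of MXD3, 22.5% is shared with PRELID1 on the opposite strand, which fell (82.0 CPM with miR-34a and 102 CPM in the control; edgeR adjusted p of 0.0032), and 18.0% with RAB24 on the same strand; the libraries do not mark strand, and the part of these genes in the value was not tested. MXD3 (ENSG00000213347) lies on chromosome 5 from 177301461 to 177312757, minus strand.

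MNT, the repressor found in most tissues, had 31.2, 33.4 and 36.4 CPM in miR-34a replicates 1, 2 and 3, against 35.7, 34.2 and 31.1 CPM in control replicates 1, 2 and 3. The groups overlapped. The log2 fold change was 0.00 ± 0.08 (SE; 95% interval -0.17 to 0.17), with an edgeR adjusted p of 0.99. Its 3′ UTR holds an 8mer. Over all tested genes with at least 1 match of 7 or 8 bases in the 3′ UTR, 19.4% of 2706 fell. MNT (ENSG00000070444) lies on chromosome 17 from 2384060 to 2401118, minus strand.

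MGA, a large protein that joins MAX to the Polycomb complex PRC1.6, had 105.9, 104.8 and 134.9 CPM in miR-34a replicates 1, 2 and 3, against 120.2, 95.2 and 99.3 CPM in control replicates 1, 2 and 3. Replicate 3 with miR-34a was the highest library, and the groups overlapped. The log2 fold change was 0.14 ± 0.09 (SE; 95% interval -0.05 to 0.33), with an edgeR adjusted p of 0.39. Without control replicate 1, the highest of the control libraries, it was 0.25, adjusted p = 0.044, and without miR-34a replicate 3, the highest library, it was 0.01, adjusted p = 0.98, so the value rests on single libraries. MGA (ENSG00000174197) lies on chromosome 15 from 41621224 to 41773081, plus strand.

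MLX had 82.4, 80.3 and 81.7 CPM in miR-34a replicates 1, 2 and 3, against 73.9, 73.4 and 80.3 CPM in control replicates 1, 2 and 3. Control replicate 3 lay level with the lowest miR-34a library. The log2 fold change was 0.10 ± 0.07 (SE; 95% interval -0.04 to 0.25), with an edgeR adjusted p of 0.40. Its 3′ UTR holds a 7mer. MLX shares 18.1% of its exonic length with PSMC3IP on the opposite strand, at 32 CPM with miR-34a and 29.3 CPM in the control. MLX (ENSG00000108788) lies on chromosome 17 from 42567068 to 42573239, plus strand.

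Set beside the seed matches, the member that fell held only a 6mer in its 3′ UTR, and of the 3 tested members with a 7mer or 8mer there, MXD4, MNT and MLX, none fell. Of all tested genes with at least 1 such match, 19.4% of 2706 fell, so 3 genes are too few to read this count either way.

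**Figure D3:**
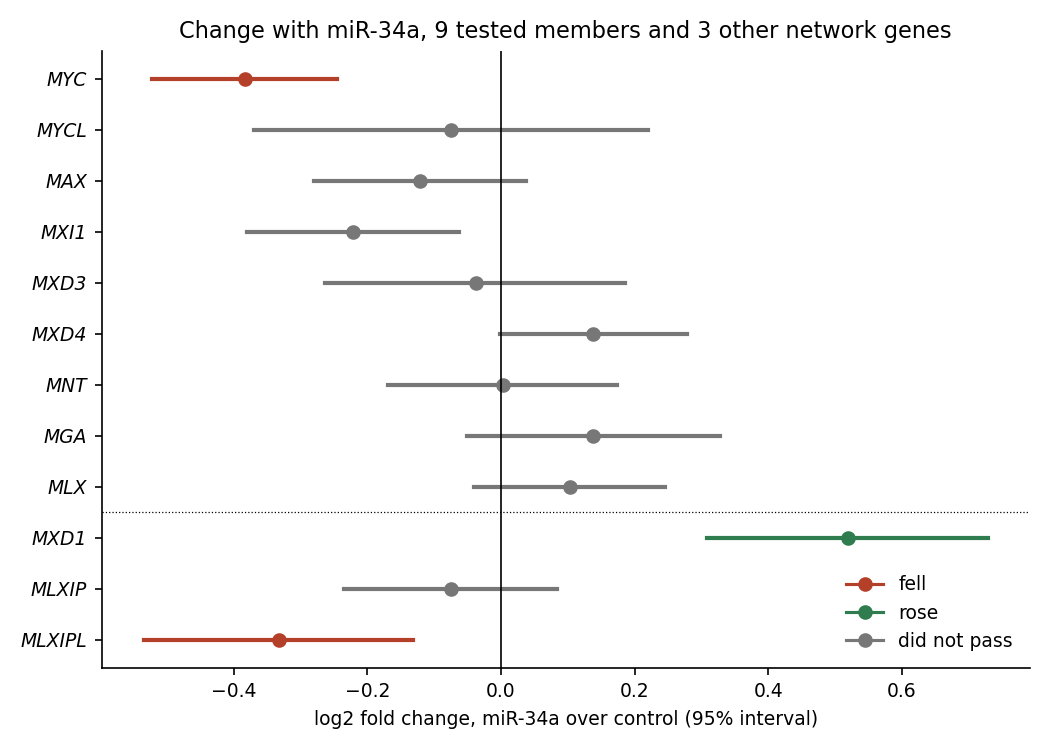
Log2 fold change, miR-34a over control, with its 95% interval for the 9 tested members and, below the dotted line, MXD1, MLXIP and MLXIPL. MYC (-0.38) is the member whose call passed, MXD1 rose (0.52) and MLXIPL fell (-0.33).

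Levels were compared between genes as RPKM, CPM divided by the length of the merged exons in kilobases, since longer genes collect more reads. MYC stood highest in both groups, at 35.4 ± 0.749 RPKM with miR-34a and 46.1 ± 1.74 RPKM in the control (SD, n = 3 each). In the control the order below it was MLX (17.8 RPKM), MAX (15.4), MXD4 (13.1), MXI1 (9.25), MGA (5.94), MNT (3.86), MXD3 (2.80), MYCL (1.45) and MYCN (0.0459), and no neighbours in that order overlapped. With miR-34a, MXD4 (14.4 RPKM) and MAX (14.2 RPKM) changed places but overlapped, and the libraries of MXI1 (7.93 RPKM) and MGA (6.53 RPKM) overlapped as well; no other neighbours did. The order depends on the length used. With the length of the single transcript, an alternative added after the values were seen, MAX stood above MLX in both groups (40.6 and 31.5 RPKM with miR-34a, 44.1 and 29.3 RPKM in the control) and MXD3 above MNT (9.19 and 6.73 RPKM with miR-34a, 9.42 and 6.74 RPKM in the control). MYC stayed first by its mean, but with miR-34a its libraries (44.0 to 45.9 RPKM) overlapped those of MAX (37.6 to 45.4 RPKM), and MXD3 overlapped MGA in both groups.

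Within a library, the summed level of MYC, MYCN and MYCL was set beside that of MXI1, MXD3, MXD4 and MNT. MGA, also a repressor partner of MAX, was not in this sum (6.53 RPKM with miR-34a and 5.94 RPKM in the control). Adding it would lower each ratio of activators to repressors given here. The activators summed to 37.4, 36.4 and 36.6 RPKM in miR-34a replicates 1, 2 and 3, against 45.5, 48.0 and 49.3 RPKM in control replicates 1, 2 and 3. The repressors summed to 28.2, 29.2 and 29.3 RPKM in miR-34a replicates 1, 2 and 3, against 28.3, 29.8 and 28.8 RPKM in control replicates 1, 2 and 3. Nearly all of the activator sum was MYC, so the gap repeats that of MYC, while the repressor sums overlapped. The ratio of activators to repressors was 1.32, 1.24 and 1.25 with miR-34a and 1.61, 1.61 and 1.71 in the control; no test was made, since the genes were chosen with results known. With the length of the single transcript in place of merged exons it was 0.951, 0.897 and 0.895 with miR-34a and 1.18, 1.15 and 1.24 in the control. Which arm is the larger thus depends on the length used, and the miR-34a libraries were lower either way. The ratio of the activators to MAX was 2.36 to 2.79 with miR-34a and 2.97 to 3.24 in the control with merged exons, and 1.05 to 1.24 with miR-34a and 1.32 to 1.44 in the control with the single transcript.

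**Figure D4:**
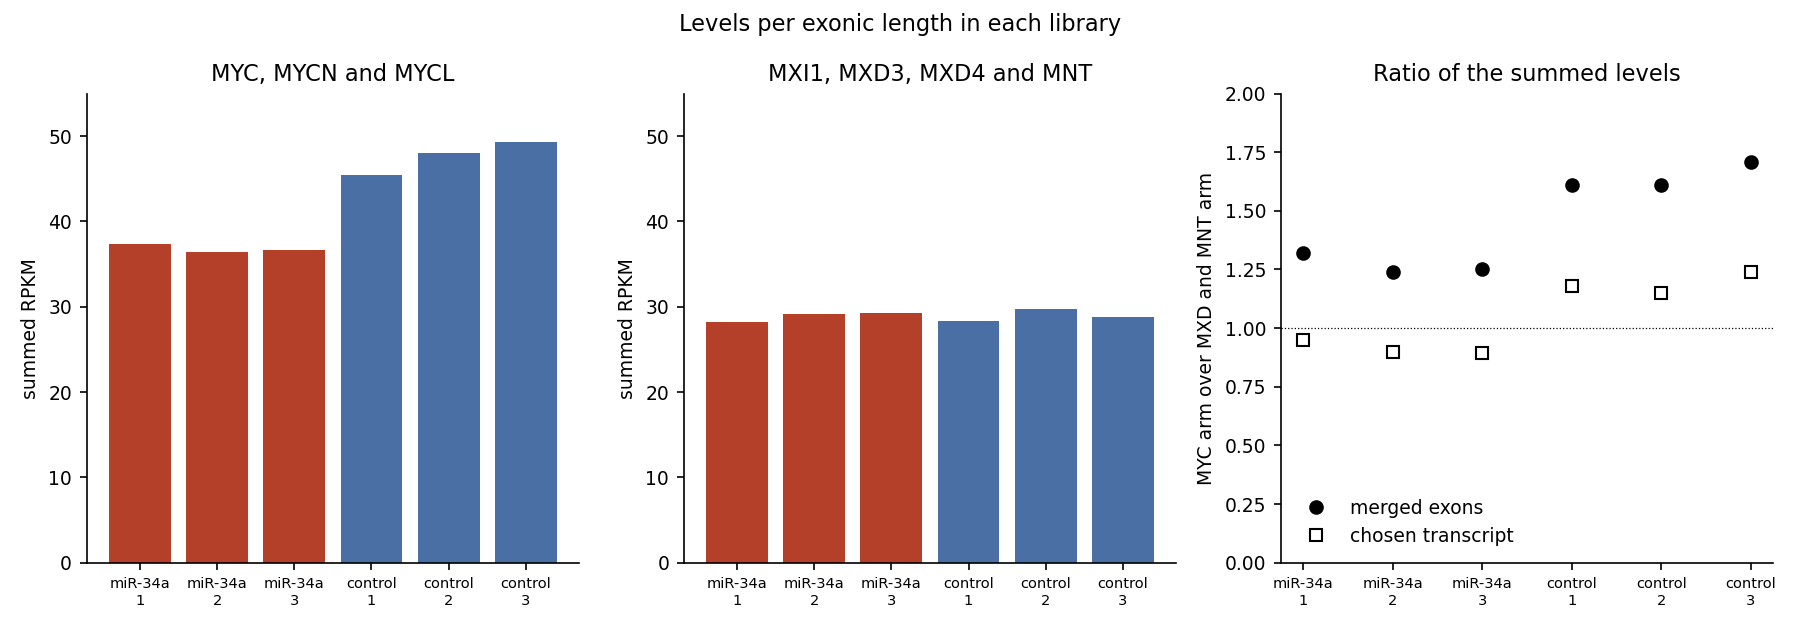
Summed RPKM of MYC, MYCN and MYCL (left) and of MXI1, MXD3, MXD4 and MNT (middle) in each library, miR-34a red and control blue, and their ratio (right) with merged exons (filled) or the single transcript (open) as length. The left bars are lower in the 3 miR-34a libraries (36.4 to 37.4 RPKM) than in the control (45.5 to 49.3 RPKM), and the middle bars overlap.

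The genes whose pattern over the 6 libraries was most like that of MYC were SGTA, CDC42EP1 and UROS, at root mean square differences of 0.0203, 0.0259 and 0.0275 in centred log2 CPM, out of 9925 protein-coding genes whose mean log2 CPM reached 3. SGTA had 124, 116 and 117 CPM in miR-34a replicates 1, 2 and 3, against 146, 157 and 163 CPM in control replicates 1, 2 and 3. MYCN was below the filter, so no such genes were sought for it.

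Of 6 network genes outside the 10 members, 1 rose (MXD1), 1 fell (MLXIPL) and 4 did not pass, with a median log2 fold change of -0.08; of all tested genes, 5.38% rose and 6.70% fell. MXD1, a repressor partner of MAX known to rise in differentiating cells, had 16.8, 18.7 and 20.6 CPM in miR-34a replicates 1, 2 and 3, against 13.3, 12.3 and 13.7 CPM in control replicates 1, 2 and 3. Each miR-34a library was higher, by 0.52 ± 0.10 on the log2 scale (SE; edgeR adjusted p = 0.00083), and MXD1 passed in each of the 12 alternatives. Its 3′ UTR held no seed match, and 3.73% of its exonic length is shared with SNRNP27 on the same strand.

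Of the MLX partners, MLXIPL fell, with 13.7, 14.7 and 13.1 CPM in miR-34a replicates 1, 2 and 3, against 16.4, 18.3 and 17.4 CPM in control replicates 1, 2 and 3. It fell by 0.33 ± 0.10 on the log2 scale (SE; edgeR adjusted p = 0.025), but the call was lost without miR-34a replicate 1 or 3 or control replicate 2 or 3 (adjusted p up to 0.11). The value for MLXIP was -0.08 ± 0.08 (adjusted p = 0.62). With MXD1 in the repressor sum, the ratio of activators to repressors was 1.21, 1.13 and 1.13 with miR-34a and 1.5, 1.51 and 1.59 in the control.

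None of 16 MYC cofactors was called by edgeR or by DESeq2, with 2 lower and 1 higher at an unadjusted p under 0.05 and a median log2 fold change of -0.05. The most expressed of them, HCFC1 and RUVBL1, had log2 fold changes of -0.17 (adjusted p = 0.18) and 0.16 (adjusted p = 0.14); HCFC1, whose 3′ UTR holds an 8mer, passed without miR-34a replicate 3 (-0.26, adjusted p = 0.034). In 11 genes of the SIN3 and NCOR corepressors that MXD proteins use, the deacetylase HDAC1 fell by 0.76 on the log2 scale, at 250.4 ± 12.6 CPM with miR-34a and 422.9 ± 15.4 CPM in the control (SD, n = 3 each); none rose (edgeR and DESeq2; 1 higher at an unadjusted p under 0.05), and the list's median was -0.03. The share that fell, 1 of 11, is near the 6.70% of all tested genes. HDAC1 holds a 7mer-m8 and is a published miR-34a target.

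Among 12 genes of the PRC1.6 complex around MGA, RING1, a ubiquitin ligase subunit of Polycomb, fell to 36.4 ± 1.19 CPM with miR-34a, against 48.0 ± 1.64 CPM in the control (SD, n = 3 each). Of 14 genes that set the stability of MYC protein, USP36, a nucleolar deubiquitinase, fell by 0.33 on the log2 scale, with an edgeR adjusted p of 0.0016. No gene of these lists rose by edgeR or DESeq2, with 1 higher in each at an unadjusted p under 0.05. The medians were 0.02 for the PRC1.6 list and 0.04 for the stability list. The shares called, 1 of 12 and 1 of 14, are near the 6.70% of all tested genes that fell. The ubiquitin ligase gene FBXW7, named after its values were seen, passed upward without miR-34a replicate 1 (0.29, adjusted p = 0.037) or control replicate 1 (0.28, adjusted p = 0.031).

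Genes commonly given as induced by MYC were lower more often than the table as a whole, by small amounts. Of 78 such genes in 2 lists, 15 fell (19.2%, against 6.70% of all tested genes), 1 rose (1.28%, against 5.38%) and 62 did not pass. The median log2 fold change was -0.09, against -0.004 over all tested genes. These lists, like the others here, were chosen with earlier results of these data known, and their shares were not tested. With a filter of 1 CPM in 3 libraries, 8.26% of all tested genes fell, and the MYC-induced count was again 15. Of the 15, LDHA, SHMT1, SLC16A1, CDC25A and BAX held a 7mer or 8mer in the 3′ UTR, and the others held none. Over all tested genes with a 3′ UTR searched (13214), 20.5% held one. Listed genes with an 8mer there that did not pass include MRTO4 and GRWD1. SHMT1, SLC16A1, BAX, MRTO4 and GRWD1 were named after their values were seen. The cause of the difference was not tested. The count of genes that fell was 7 without miR-34a replicate 2 and 9 without control replicate 3; those fits called 4.01% and 4.55% of all genes as lower. In the nucleolar list 4 of 35 fell and none rose (edgeR and DESeq2; 1 higher at an unadjusted p under 0.05); 2 fell without miR-34a replicate 2 or without control replicate 3. In the list of metabolism, chaperones and growth 11 of 43 fell, against 5 without miR-34a replicate 2, 6 without miR-34a replicate 3 and 7 without control replicate 3, and 1 rose, EIF4E, the cap-binding translation factor (log2 fold change 0.22, adjusted p = 0.044), whose call was lost in 4 alternatives.

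The nucleolar genes with the lowest adjusted p were NOP16, RCL1, IMP4 and RRS1, all of ribosome biogenesis. NOP16 had 51.8, 49.1 and 49.2 CPM in miR-34a replicates 1, 2 and 3, against 62.5, 60.6 and 63.4 CPM in control replicates 1, 2 and 3, with no overlap. NOP16, RCL1, IMP4 and RRS1 fell by 0.31, 0.38, 0.30 and 0.31 on the log2 scale (adjusted p = 0.0032, 0.0045, 0.0056 and 0.012 by edgeR), and none had a seed match in its 3′ UTR. RCL1 and RRS1 lost their calls without miR-34a replicate 2 or control replicate 3. NOP16 shares 12% of its exonic length with ARL10 and 7.93% with HIGD2A, both on the opposite strand.

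In the metabolic list the lowest adjusted p-values were those of CDK4, CDC25A, LDHA, SLC7A5 and SRM. CDK4, the G1 kinase, fell by 0.96 on the log2 scale; it is a published miR-34a target, the 3′ UTR searched held no seed match, and 43.2% of its exonic length is shared with TSPAN31 on the opposite strand. CDC25A, the phosphatase of the G1/S transition, fell by 0.39 and holds a 7mer-A1. LDHA, which makes lactate, fell by 0.37 and holds an 8mer. SLC7A5, a transporter of large amino acids, and SRM, spermidine synthase, fell by 0.33 and 0.35 and had no seed match. SRM had 188.5, 163.1 and 169.7 CPM in miR-34a replicates 1, 2 and 3, against 202.9, 231.9 and 228.0 CPM in control replicates 1, 2 and 3. All 5 had an edgeR adjusted p of 0.0019 or below, and each passed in all 12 alternatives.

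Promoters were searched for the E-box CACGTG, which reads the same on both strands, in the RefSeq windows from 250 bases before to 50 after each gene's start (GRCh38.p14). It was present in 9.93% of the 11884 promoters of tested genes that matched by symbol, and in 25 of 64 matched promoters of the MYC-induced genes (39.1%). Of the 15 MYC-induced genes that fell, 13 matched and 8 of these held it. Among the members 9 matched, and MXD4, MNT and MLX held 1 each. The promoter of MYC was not in the RefSeq set and was not searched. The members' E-boxes are printed with the motif in capitals, as the sites at which network proteins are known to pair with DNA. For LDHA, CDK4, SLC7A5, SRM and IMP4, MYC-induced genes that fell, the upstream E-box nearest the start is printed too. This is not a full list. BAX, which also fell, held upstream E-boxes that are not printed, the nearest 45 bases before the start.
MLX, 50 bases before the start, chr17:42567038-42567067, plus strand: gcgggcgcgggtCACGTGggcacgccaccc
MNT, 193 bases before the start, chr17:2401236-2401265, minus strand: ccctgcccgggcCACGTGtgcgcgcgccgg
MXD4, 238 bases before the start, chr4:2262330-2262359, minus strand: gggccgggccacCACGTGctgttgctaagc
LDHA, 87 bases before the start, chr11:18394464-18394493, plus strand: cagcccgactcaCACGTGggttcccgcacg
CDK4, 101 bases before the start, chr12:57752394-57752423, minus strand: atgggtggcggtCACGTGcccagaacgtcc
SLC7A5, 130 bases before the start, chr16:87869620-87869649, minus strand: ggccggacgacgCACGTGctccgagctggg
SRM, 199 bases before the start, chr1:11060200-11060229, minus strand: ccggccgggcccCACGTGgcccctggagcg
IMP4, 203 bases before the start, chr2:130342682-130342711, plus strand: gcggtcctaagtCACGTGtgacattctgta
A match of these letters is not a measured binding site, and binding was not assayed here.

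Genes given as repressed by MYC were not higher as a group. Of 13 tested, 5 fell (38.5%, against 6.70% of all tested genes) and none rose by edgeR (5.38% of all tested genes rose), with a median log2 fold change of -0.28, against -0.004 over all tested genes; 1 was higher at an unadjusted p under 0.05. GAS1, a growth arrest gene, NDRG1, a stress and differentiation gene, and BTG2, an antiproliferative gene, fell by 0.67, 0.55 and 0.64 on the log2 scale, with adjusted p-values of 3.0e-05 or lower. GAS1 holds an 8mer, NDRG1 a 7mer-A1 and BTG2 a 6mer. CCNG2 and CDKN1A, which encode an unconventional cyclin and p21, fell by 0.31 and 0.28; CCNG2 lost its call without miR-34a replicate 2 or control replicate 3, and CDKN1A in 7 of 12 alternatives (adjusted p up to 0.21). Without miR-34a replicate 2 or control replicate 3 the count that fell was 3. KLF6 lay at the threshold, at 0.26 (adjusted p = 0.050), and was called higher by DESeq2 and in 5 other alternatives; it was named after its values were seen.

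Of the pair of genes best known as MLX and MondoA targets, ARRDC4, an arrestin-like regulator of glucose uptake, had 50.4, 53.6 and 49.5 CPM in miR-34a replicates 1, 2 and 3, against 36.6, 39.8 and 38.9 CPM in control replicates 1, 2 and 3. It rose by 0.41 ± 0.08 on the log2 scale (SE; edgeR adjusted p = 0.00035) and passed in all 12 alternatives. TXNIP, its better known relative, stood at -0.24 ± 0.09 on that scale (adjusted p = 0.097) and holds a 7mer-A1. Of 12 germline genes given as repressed by MGA and PRC1.6, 5 were tested and none was called by edgeR or DESeq2, nor did any pass at an unadjusted p under 0.05; their median was 0.13. The most expressed, TDRKH and MEIOC, had log2 fold changes of 0.13 (adjusted p = 0.31) and 0.15 (adjusted p = 0.53).

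**Figure D5:**
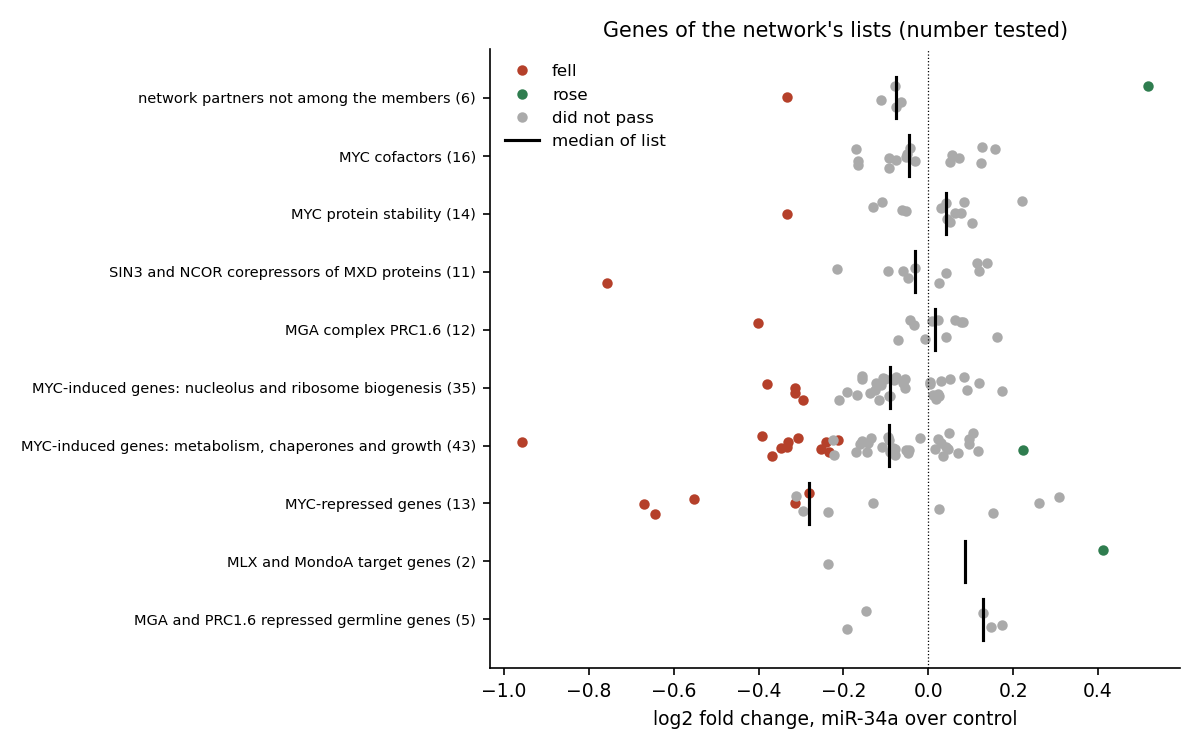
Log2 fold change, miR-34a over control, of each tested gene in the lists around the network (numbers tested in brackets; red fell, green rose, grey did not pass; black bars are list medians). The MYC-induced lists have medians of -0.09 and the MYC-repressed list -0.28, and most genes did not pass.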

How the data were processed

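RNA was sequenced from 6 libraries of HEK293T cells, 3 with miR-34a and 3 control, all built with the unstranded TruSeq RNA v2 kit. The authors deposited a table of whole-number read counts by Ensembl gene, not normalized. The submitters' processing notes name STAR 2.7.11a, featureCounts, Subread 2.0.3, edgeR 3.42.4 and GRCh38; of the annotation release, strand setting and shared reads nothing is stated: each is not given in the sources used here. All rows name a gene.

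Genes were kept by filterByExpr of edgeR 4.0.16 (R 4.3.3; minimum count 10, minimum total 15), scaled by TMM (factors 0.981 to 1.016) and fitted by its quasi-likelihood test on a model of group alone, with Benjamini-Hochberg adjustment over all 17427 tested genes. CPM and RPKM use TMM library sizes. Alternatives were DESeq2 1.42.0, other scalings and filters, a replicate block and leaving out each library. The test was checked on simulated data with planted changes larger than that of MYC, so the check does not cover changes of the size seen in the members. Chi-square per degree of freedom between libraries of a group was 7.64 to 14.35, so no library looked like a duplicate of another.

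Symbols came from an Ensembl name table (62541 of 63140 identifiers matched), annotation from GENCODE release 29 and printed miRNAs and promoters from RefSeq. Seed matches in the coding sequence of MXI1 are not reported here. The 10 members, the gene lists and the rule for named genes were chosen with earlier results of these data known. That rule takes all members, from each list the up to 5 genes called with the lowest adjusted p (else the 2 most expressed), TXNIP and ARRDC4, and the 3 genes most like MYC and MYCN.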

Additional observations from a re-analysis of the deposited data

How the results depend on the processing

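The fall of MYC kept its direction and its call in all 12 alternatives, and the count of members that fell was 1 in each of them. With single libraries left out, the log2 fold changes of MYCL, MXD3 and MNT changed sign, over -0.216 to 0.010, -0.119 to 0.069 and -0.059 to 0.054; none of these values passed. Over the same fits the count that rose was 0 to 1 among members, and the count that fell was 0 to 1 among other network genes, 0 to 1 among cofactors, 1 to 2 among SIN3 and NCOR genes, 2 to 6 in the nucleolar list, 5 to 12 in the metabolic list, 7 to 17 in both MYC-induced lists together and 3 to 5 among MYC-repressed genes. The count that rose was 0 to 1 for the stability, metabolic, MYC-induced and MYC-repressed lists. MYC-repressed genes that rose numbered 1 (KLF6) with DESeq2 size factors, with library size only, in the DESeq2 test, with no filter and with a filter of 1 CPM in 3 libraries. Same-numbered libraries did not deviate together (correlations of -0.214, -0.0467 and -0.257 over 10267 genes), and in no pair did the own number correlate best. The labels do not say whether the numbers mark a pairing, and with 3 libraries per group these correlations cannot exclude one. With the replicate block MYC stayed called (-0.383), 12 MYC-induced genes fell and 0 rose, also 0 in the metabolic list. The cause of these changes was not tested. MYCN was too shallow to test, and MYCL, the next lowest, had the widest SE of the tested members (0.14).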
